A study of Mus musculus with 12 samples.

Results

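Branched-chain amino acid breakdown is described here through 10 genes, Bcat2, Bckdha, Bckdhb, Dbt, Bckdk, Ppm1k, Ivd, Mccc1, Mccc2 and Hibadh, in the myocardium of control, diabetic and angiotensin IV treated diabetic mice. Each gene was found by its symbol in the platform annotation, and each of the 10 had 1 probe set. They are 10 of 19505 named genes, and all 10 were among the 13653 genes bright enough to be tested. There were 12 single-colour Affymetrix arrays, 4 in each of 3 groups. AngIV mice were diabetic and also received high-dose angiotensin IV, a short peptide of the renin-angiotensin system, at 2.88 mg/kg/day from the end of week 8 to the end of week 24, and DM mice were diabetic without it. Both had received streptozotocin intraperitoneally on 5 days and were kept where their fasting blood glucose reached 16.7 mM 2 weeks afterwards. NC mice, the negative controls, received vehicle on 5 days in place of streptozotocin. The labels give 6 months for all groups, without saying whether this is age or duration, and name neither strain nor sex. The series' design gives 4 mice per group, and each array was taken as 1 mouse. Streptozotocin kills the beta cells of the pancreas, so the diabetes of these mice is one of insulin lack. The disease state tag goes against titles and source names for NC and AngIV, and groups were taken from the titles.

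Leucine, isoleucine and valine, the branched-chain amino acids, are broken down mainly outside the liver, and heart muscle can oxidise them. A transaminase in the mitochondrion first turns each into its branched-chain keto acid. The branched-chain keto acid dehydrogenase (BCKDH) complex then removes carbon dioxide in the committed step, and it is switched off when its kinase phosphorylates the E1 alpha subunit and switched on when its phosphatase removes the phosphate. Separate enzymes carry the products of leucine to ketone bodies and acetyl-CoA, those of valine to propionyl-CoA, and those of isoleucine to acetyl-CoA and propionyl-CoA. Reduced expression of this pathway is well known from failing mouse and human hearts and from insulin-resistant tissue.

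All 10 genes read above background in every group mean. Their group means lay between 6.52 and 9.26 on the log2 RMA scale, while the 95th percentile of 5222 negative control probe sets averaged 5.53 on AngIV, 5.53 on DM and 5.48 on NC arrays. RMA is the authors' summary of the probes of a probe set, and a difference of 1 on this scale is a 2-fold difference of signal. All 7 cardiomyocyte markers were above the negative controls in every group, with a mean of 11.39 in AngIV, 11.35 in DM and 11.40 in NC. Adipocyte markers other than Fabp4, which endothelium also expresses, lay below them, with Adipoq at 3.18 in AngIV, 3.16 in DM and 3.86 in NC. Macrophage markers averaged 6.45 ± 0.42 in AngIV, 6.28 ± 0.54 in DM and 5.76 ± 0.15 in NC (log2 signal, mean ± SD, n = 4). The mean of 6 smooth muscle and pericyte markers ran from 6.22 to 6.70 on AngIV arrays, from 5.70 to 6.34 on DM arrays and from 5.75 to 7.55 on NC arrays. Their median log2 change was -0.62 in DM against NC, where 4 of 6 were lower, 0.32 in AngIV against DM, where 6 of 6 were higher, and -0.15 in AngIV against NC, and limma called 0 of them. Above the negative controls were 4 of 6 macrophage markers in AngIV, 4 in DM and 3 in NC. For smooth muscle and pericyte markers these were 4, 3 and 4 of 6 in that order. Limma called 1 of 5 fibroblast markers, lower in AngIV against NC, where 2.15% of all genes were called. There 4 of the 5 were lower and 1 higher. Col3a1 among them averaged 6.02 in AngIV, 6.73 in DM and 7.19 in NC. The part of the macrophage, fibroblast, smooth muscle and pericyte markers in the results below was not tested. Atrial markers differed widely between arrays. Of 8 listed, 7 were tested, and Bmp10 lay near the bottom of the scale in all groups. Myl7, the atrial light chain, averaged 3.72 in AngIV, 7.65 in DM and 6.49 in NC. The markers did not all go this way, since 3 of the 7 were higher and 4 lower in AngIV against DM. Nr2f2 averaged 6.02 in AngIV, 5.74 in DM and 5.52 in NC, and Kcna5 6.28, 6.09 and 6.02 in that order. The mean of the 7, Myl7, Myl4, Sln, Nppa, Nr2f2, Tbx5 and Kcna5, ran from 5.71 to 6.15 on AngIV arrays, from 5.33 to 8.09 on DM arrays and from 5.73 to 8.18 on NC arrays, and it exceeded 7 on 5 arrays, DM replicates 1, 2 and 4 and NC replicates 1 and 3. In such bulk tissue, fewer cells that express a gene and less RNA of it per cell cannot be told apart.

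The comparison of DM with NC asked what diabetes changed in the heart. All 10 genes were lower in DM, by 0.15 to 0.83 on the log2 scale (49.6% of all genes had a positive change), with a median log2 change of -0.43, against -0.00 over all 13653 genes. Bckdhb, a subunit of the BCKDH complex, and Ivd, an enzyme of leucine breakdown, stood farthest apart, at 1.78-fold and 1.58-fold lower in DM. Limma called 0 of the 10 at an adjusted p under 0.05, with adjusted p-values from 0.0681 to 0.631, and 0.022% of all genes were called. At an unadjusted limma p under 0.05, 8 of the 10 were lower and 0 higher, against 5.08% and 5.62% of all genes (10.7% in either direction). In 6 of the 10 every DM array was below every NC array, which held for 2.45% of all genes, and 2.84% in the other direction. The 10 genes were chosen with earlier results of these data known, and they varied together from array to array. The counts in this and the other comparisons are therefore not 10 separate observations. An exact two-sided permutation test always gives p = 0.0286, its smallest value, where 4 against 4 arrays do not overlap. For these genes it therefore adds nothing to the non-overlap itself. With the atrial mean as a covariate, 8 of the 10 were lower and 0 higher at an unadjusted limma p under 0.05. Of all genes, 10% reached it in either direction, and the median change of the 10 was -0.40. Without the 5 arrays whose atrial mean exceeded 7, DM keeps 1 array. The median change was then -0.32, with 9 of the 10 negative and 1 positive.

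AngIV against DM asked what angiotensin IV infusion changed in diabetic mice. All 10 genes were higher in AngIV, by 0.21 to 0.54 on the log2 scale (52.9% of all genes had a positive change), with a median log2 change of 0.35, against 0.01 over all genes. Ppm1k, the phosphatase that switches the complex on, and Bckdhb had the largest changes, at 1.45-fold and 1.44-fold. Limma called 0 of the 10, with adjusted p-values from 0.318 to 0.62, and 0% of all genes were called. At an unadjusted p under 0.05, 9 of the 10 were higher and 0 lower, against 5.27% and 3.51% of all genes (8.78% in either direction). In 6 of the 10 every AngIV array was above every DM array, against 3.57% of all genes, and 2.19% in the other direction. With the atrial mean as a covariate, 2 of the 10, Bckdha and Ppm1k, were at an unadjusted p under 0.05. Of all genes, 9.25% reached it in either direction. The median change of the 10 was then 0.21, and all 10 changes were positive. The atrial mean was 5.71 to 6.15 on AngIV arrays and over 7 on DM replicates 1, 2 and 4. The covariate therefore cannot fully separate atrial content from treatment. Without the 5 arrays of high atrial mean, where DM keeps 1 array, the median change was 0.18. Without DM replicate 2 the number at an unadjusted p under 0.05 was 5. The same 4 DM arrays enter both comparisons, so the opposite signs are not independent of each other.

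In AngIV against NC the 10 genes lay on both sides of 0, with 5 higher and 5 lower, where 50.6% of all genes had a positive change, and a median log2 change of -0.06, against 0.00 over all genes. Ivd was the gene at an unadjusted p under 0.05, lower in AngIV by 0.39 on the log2 scale, where 7.74% of all genes were lower and 10.9% higher at that threshold (18.6% in either direction). Limma called 0 of the 10, against 2.15% of all genes, with adjusted p-values from 0.116 to 0.941. Ivd was also the 1 gene of the 10 whose arrays did not overlap, all AngIV arrays being below all NC arrays, as for 5.17% of all genes, and 7.59% in the other direction. With the atrial mean as a covariate, Ivd was called (log2 change -0.49 ± 0.12 (SE), limma adjusted p = 0.0435). The share of all genes called in this fit is not given here. There 4 of the 10 were lower and 0 higher at an unadjusted p under 0.05, against 19.4% of all genes in either direction. In that fit 7 of the 10 changes were negative and 3 positive, with a median of -0.17. Without the arrays of high atrial mean, where NC keeps 2 arrays, 7 were negative and 3 positive, with a median of -0.10.

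**Figure D1:**
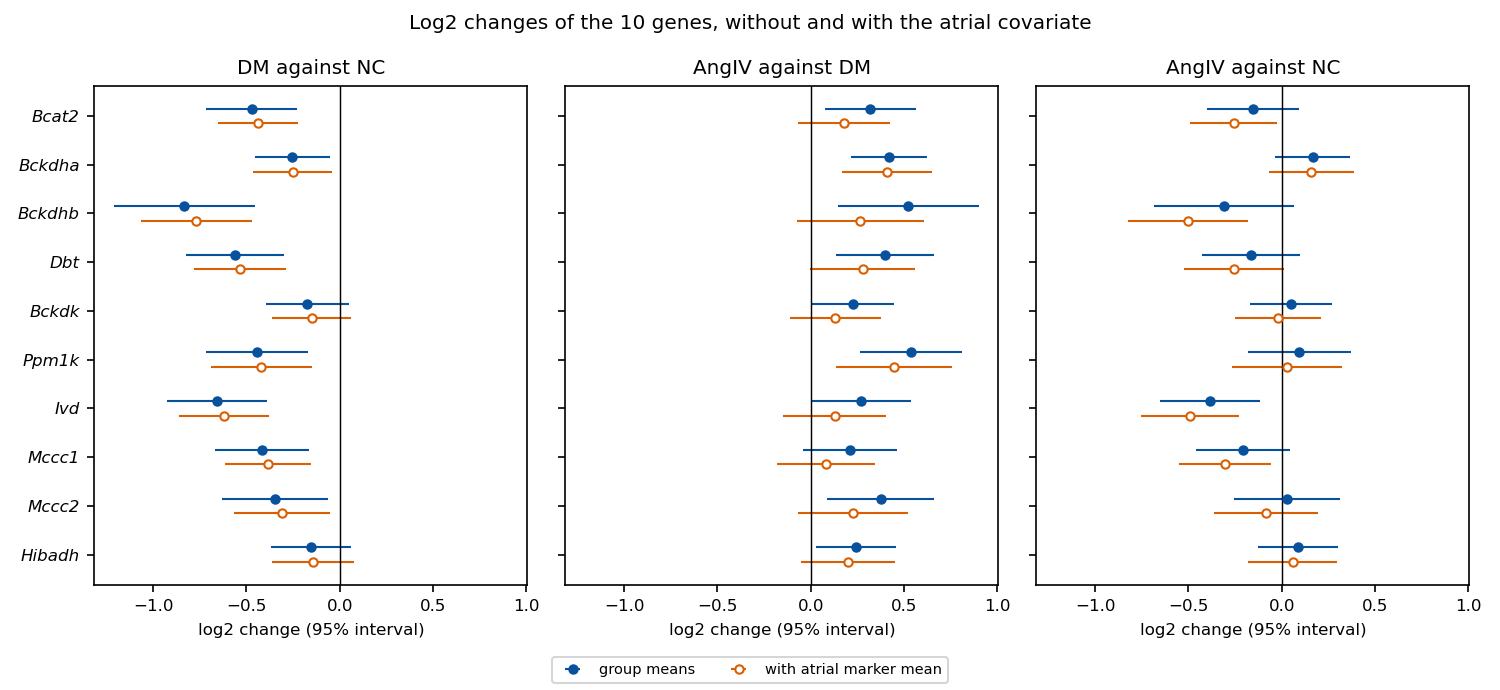
Log2 change of each of the 10 genes (dots) with its 95% interval (bars) in 3 comparisons, from group means (filled) and with the mean of the atrial markers on each array as a covariate (open). All 10 filled dots lie below 0 in DM against NC and above 0 in AngIV against DM. There the open dots lie nearer to 0, and 2 of the open intervals, those of Bckdha and Ppm1k, exclude 0.

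The stretches of 250 bases before the start sites of Bckdhb and Ivd, the genes lowest in DM relative to NC, and of Hibadh, the gene with the smallest change, are shown so that the promoters of genes with large and small differences can be read side by side. They are RefSeq sequences of GRCm38.p6, 5′ to 3′, with capitals for each CCAAT, the letters bound by the factor NF-Y, on either strand.
Bckdhb (chr9:83924887-83925136, plus strand): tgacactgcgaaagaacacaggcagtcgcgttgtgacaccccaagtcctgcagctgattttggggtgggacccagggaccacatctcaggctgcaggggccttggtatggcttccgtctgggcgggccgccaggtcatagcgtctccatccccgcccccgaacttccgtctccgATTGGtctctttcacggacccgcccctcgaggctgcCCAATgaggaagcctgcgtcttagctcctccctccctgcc
Ivd (chr2:118861744-118861993, plus strand): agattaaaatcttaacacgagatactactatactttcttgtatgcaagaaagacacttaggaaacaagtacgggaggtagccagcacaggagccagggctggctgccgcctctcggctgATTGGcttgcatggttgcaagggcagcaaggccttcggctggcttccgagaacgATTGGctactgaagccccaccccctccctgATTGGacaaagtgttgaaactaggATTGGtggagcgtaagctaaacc
Hibadh (chr6:52640301-52640550, minus strand): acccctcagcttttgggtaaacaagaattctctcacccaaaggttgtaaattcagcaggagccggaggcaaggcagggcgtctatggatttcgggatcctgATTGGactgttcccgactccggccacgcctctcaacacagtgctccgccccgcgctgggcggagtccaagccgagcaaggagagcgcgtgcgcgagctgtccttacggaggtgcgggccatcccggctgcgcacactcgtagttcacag
The capitals occur 2 times in Bckdhb, 4 times in Ivd and 1 time in Hibadh. In the genes not shown, CCAAT occurs 3 times in Mccc1, 3 times in Mccc2, 2 times in Ppm1k and 1 time in Bckdk. Bcat2 and Bckdha hold it 0 times. Whether its number goes with the size of the change was not tested. A promoter was held for 9 of the 10 genes, in 11 windows, since Bcat2 and Bckdhb had a pair each. The Bckdhb window shown is that of its first start site, and its other window holds this motif 0 times. CCAAT was present in 7 of the 11 windows, against 33.8% of 32851 windows of all genes. The GC box GGGCGG was in 4 of 11, against 32.7%, and CACCC, the core of sites for Krüppel-like factors, in 7 of 11, against 52.0%. The E-box CACGTG, which clock factors bind, was in 1 of 11, that of Mccc2, against 6.02%. AAGGTCA, the site letters of oestrogen-related receptors, was in 0 of 11, against 4.08%. Both strands were searched for each, none of these motifs contains another, and these counts describe letters, not binding.

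Bcat2 (Entrez gene 12036) encodes the mitochondrial transaminase that starts the pathway. Its log2 signal was 7.27, 7.05, 6.97 and 7.21 on AngIV replicates 1 to 4, 6.78, 6.61, 6.96 and 6.87 on DM replicates 1 to 4, and 7.03, 7.33, 7.31 and 7.44 on NC replicates 1 to 4. Each DM array was below each AngIV and each NC array, while AngIV and NC overlapped. The log2 change was -0.47 ± 0.12 (SE) in DM against NC and 0.32 ± 0.12 in AngIV against DM (limma adjusted p = 0.143 and 0.495).

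The BCKDH complex is built from the E1 subunits alpha and beta, encoded by Bckdha and Bckdhb, and the E2 core, encoded by Dbt. Bckdhb (Entrez gene 12040) read 7.26, 6.87, 6.88 and 7.15 on AngIV arrays, 6.23, 6.08, 6.91 and 6.85 on DM arrays, and 7.09, 7.50, 7.38 and 7.42 on NC arrays. The DM arrays split, with replicates 1 and 2 low and replicates 3 and 4 at the level of the lower AngIV arrays. All 4 nevertheless lay below the lowest NC array, and the AngIV and DM ranges overlapped. Its log2 change in DM against NC was -0.83 ± 0.18 (SE), and its 95% interval ran between -1.21 and -0.45 (limma adjusted p = 0.1). In AngIV against DM it was 0.52 ± 0.18 (limma adjusted p = 0.484), and 0.27 ± 0.16 with the atrial covariate.

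Dbt (Entrez gene 13171) read 7.45, 7.34, 7.12 and 7.27 on AngIV arrays, 6.77, 6.66, 7.11 and 7.05 on DM arrays, and 7.31, 7.35, 7.63 and 7.54 on NC arrays. DM was the lowest group on every array, with replicate 3 only just under the lowest AngIV array. The log2 change was -0.56 ± 0.12 (SE) in DM against NC and 0.40 ± 0.12 in AngIV against DM, with limma adjusted p-values of 0.104 and 0.432. Bckdha (Entrez gene 12039), which encodes the E1 subunit that carries the regulatory phosphate, had its highest mean in AngIV. It read 8.77, 8.73, 8.62 and 8.68 on AngIV arrays, 8.25, 8.22, 8.22 and 8.43 on DM arrays, and 8.45, 8.43, 8.66 and 8.61 on NC arrays. AngIV was above DM on every array and above the NC range on 3 of 4, and DM replicate 4 reached the lower NC arrays. Bckdha had a log2 change of -0.25 ± 0.09 in DM against NC (limma adjusted p = 0.344) and 0.42 ± 0.09 in AngIV against DM (limma adjusted p = 0.318), and the second was 0.41 ± 0.11 with the atrial covariate. In AngIV against NC, Bckdha had 0.17 ± 0.09, Bckdhb -0.31 ± 0.18 and Dbt -0.17 ± 0.12, none of them called, and the Dbt value was -0.11 without either NC replicate 3 or AngIV replicate 3. Whether the subunits differed from each other was not tested.

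A phosphatase and a kinase set the activity of the complex. Ppm1k (Entrez gene 243382), the mitochondrial phosphatase that activates BCKDH, read 8.37, 8.48, 8.02 and 8.17 on AngIV arrays, 7.89, 7.51, 7.81 and 7.67 on DM arrays, and 7.92, 8.27, 8.33 and 8.14 on NC arrays. The DM arrays were the lowest 4, and AngIV and NC overlapped. Its log2 change was -0.44 ± 0.13 (SE) in DM against NC and 0.54 ± 0.13 in AngIV against DM, at limma adjusted p-values of 0.223 and 0.318. With the atrial covariate the change in AngIV against DM was 0.45 ± 0.14. The kinase gene Bckdk (Entrez gene 12041), whose product inactivates BCKDH, read 7.87, 7.89, 7.92 and 7.81 on AngIV arrays, 7.61, 7.56, 7.65 and 7.77 on DM arrays, and 7.54, 7.86, 7.92 and 7.96 on NC arrays. NC replicate 1, the array with the highest atrial mean, was the lowest of the 12, so that NC and DM overlapped, whereas every AngIV array was above every DM array. Bckdk had a log2 change of -0.17 ± 0.10 in DM against NC (limma adjusted p = 0.587), with a 95% interval from -0.40 to 0.05 and a value of -0.27 without NC replicate 1, and 0.22 ± 0.10 in AngIV against DM (limma adjusted p = 0.558).

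Ivd, Mccc1 and Mccc2 act on leucine after the BCKDH step. Ivd (Entrez gene 56357), isovaleryl-CoA dehydrogenase, read 7.64, 7.66, 7.57 and 7.49 on AngIV arrays, 7.09, 7.13, 7.48 and 7.57 on DM arrays, and 7.79, 7.87, 8.06 and 8.18 on NC arrays. It was the gene in which both diabetic groups lay wholly below NC, and AngIV and DM overlapped through DM replicate 4. The log2 change was -0.66 ± 0.13 (SE) in DM against NC (95% interval -0.92 to -0.39, limma adjusted p = 0.0681), 0.27 ± 0.13 in AngIV against DM (limma adjusted p = 0.564) and -0.39 ± 0.13 in AngIV against NC (limma adjusted p = 0.116). Without DM replicate 4, or with a trend of variance on signal, Ivd passed in DM against NC (limma adjusted p = 0.0278 and 0.0252), and with the trend Bckdhb passed as well (limma adjusted p = 0.0482).

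Mccc1 and Mccc2 encode the alpha and beta subunits of methylcrotonyl-CoA carboxylase, the biotin enzyme that follows. Mccc1 (Entrez gene 72039) read 7.78, 7.79, 7.81 and 7.88 on AngIV arrays, 7.58, 7.28, 7.80 and 7.77 on DM arrays, and 7.84, 8.01, 8.17 and 8.07 on NC arrays. DM lay below NC on all arrays, with DM replicate 3 close under NC replicate 1, and the AngIV arrays lay close together and overlapped both. Mccc2 (Entrez gene 78038) read 7.03, 7.01, 6.80 and 6.81 on AngIV arrays, 6.28, 6.41, 6.69 and 6.76 on DM arrays, and 6.63, 6.76, 7.01 and 7.12 on NC arrays. DM and NC overlapped, and AngIV was above DM on every array. Mccc1 had a log2 change of -0.42 ± 0.12 (SE) in DM against NC and 0.21 ± 0.12 in AngIV against DM, with limma adjusted p-values of 0.219 and 0.62. Without DM replicate 2 the Mccc1 change in AngIV against DM was 0.10. Mccc2 had -0.35 ± 0.13 and 0.37 ± 0.13, with limma adjusted p-values of 0.362 and 0.492.

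Hibadh (Entrez gene 58875) encodes 3-hydroxyisobutyrate dehydrogenase, an enzyme of valine breakdown whose substrate can leave the cell. It read 9.35, 9.28, 9.14 and 9.29 on AngIV arrays, 9.10, 8.88, 9.17 and 8.93 on DM arrays, and 9.12, 9.07, 9.33 and 9.18 on NC arrays. All 3 groups overlapped. Its log2 change was -0.15 ± 0.10 (SE) in DM against NC, with a 95% interval from -0.37 to 0.06, and 0.24 ± 0.10 in AngIV against DM (limma adjusted p = 0.631 and 0.531). It was the 1 gene of the 10 whose change in DM against NC turned positive, to 0.05, without the arrays of high atrial mean. There DM keeps 1 array, replicate 3, and NC keeps 2. Without NC replicate 3 the change was -0.10.

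**Figure D2:**
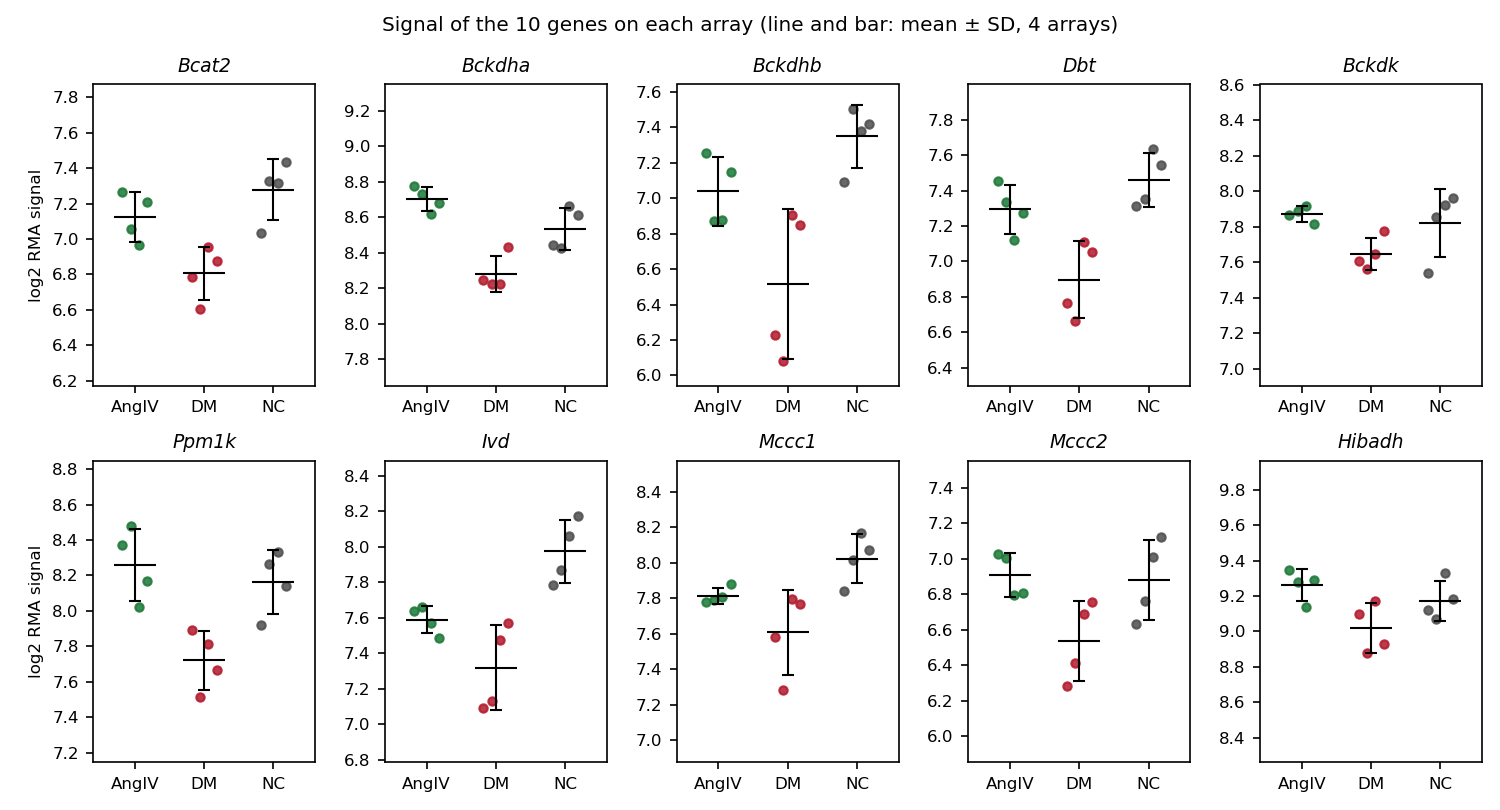
Log2 RMA signal (vertical axes, each spanning the same number of log2 units) of the 10 genes on each array (points, in replicate order) in AngIV, DM and NC, with the mean and SD of 4 arrays as a line and bars. DM is the lowest group mean in all 10 panels, and in Bckdhb the DM points run from 6.08 to 6.91.

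The 10 genes varied together from array to array. Over the 12 arrays, all 45 pairs of genes correlated above 0, with Pearson's r from 0.43 to 0.95 and a median of 0.75. After group means were subtracted, all 45 were still above 0, with r from 0.14 for Bckdk and Hibadh to 0.96 for Ivd and Mccc2 and a median of 0.63. Over all pairs of tested genes, the median after this subtraction was 0.00, and 50.2% were above 0. These correlations describe 12 arrays that share tissue makeup and normalization. The mean log2 signal of the 10 genes was 7.88, 7.81, 7.68 and 7.78 on AngIV replicates 1 to 4, 7.36, 7.23, 7.58 and 7.57 on DM replicates 1 to 4 and 7.67, 7.84, 7.98 and 7.97 on NC replicates 1 to 4. Every DM array had a lower mean than every AngIV and every NC array, and AngIV and NC overlapped.

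The arrays with the lowest mean of the 10 genes in DM and NC were high in atrial signal, though not all arrays of high atrial signal were low. DM replicates 1 and 2, with the lowest means, had atrial means of 7.70 and 8.09, and NC replicate 1, the lowest of NC, had 8.18. NC replicate 3, with an atrial mean of 7.12, had the highest mean of NC. DM replicate 3 had an atrial mean of 5.33, the lowest of the 12 arrays, and its mean over the 10 genes, 7.58, was below that of each AngIV and NC array. After group means were subtracted, each of the 10 genes correlated below 0 with the atrial mean over the 12 arrays, with r from -0.75 for Bcat2 to -0.08 for Bckdha. The 10 genes also correlate with each other, so these are not 10 separate observations, and the share of all genes below 0 is not given here.

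**Figure D3:**
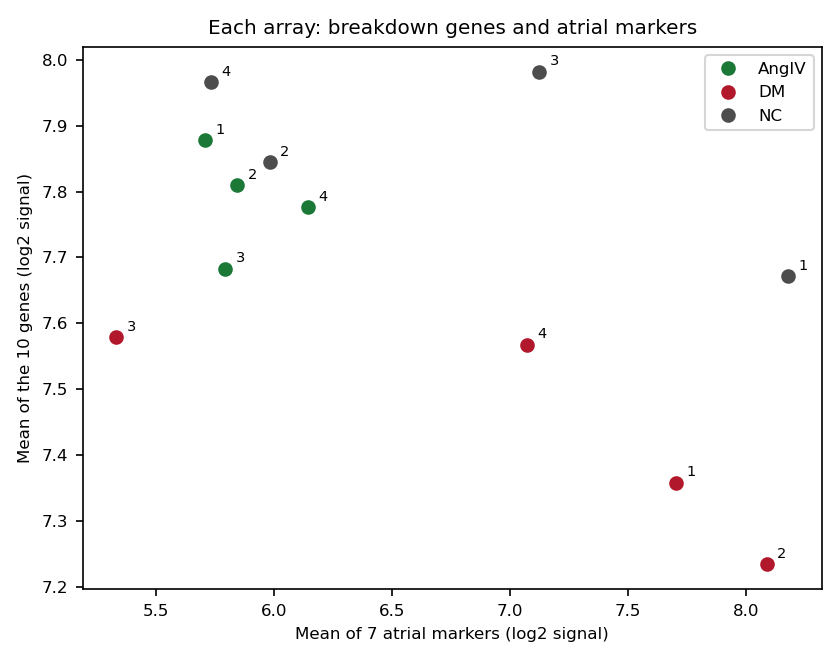
Mean log2 signal of the 10 genes (vertical axis) against the mean log2 signal of 7 atrial markers (horizontal axis) on each array, with replicate numbers beside the points. All AngIV points have a low atrial mean, from 5.71 to 6.15, and all 4 DM points lie below all points of the other groups.

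The genes whose pattern over the 12 arrays was most like the mean of the 10, each gene scaled to equal variance, were Acadsb, which acts on isoleucine (Pearson's r = 0.939), Pcx, pyruvate carboxylase (0.921), Ccng1, cyclin G1 (0.919), Aldh4a1, an enzyme of proline breakdown (0.908), and Asb3 (0.905). After group means were subtracted, their r was 0.781, 0.910, 0.893, 0.947 and 0.790 in that order. The 99th percentile over all other tested genes was 0.754 before the subtraction and 0.785 after it. The genes named were picked for the highest r before the subtraction, so passing that percentile was fixed in advance. Their values after it come from the same arrays.

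Another 25 genes of the pathway were listed, from amino acid transport to propionyl-CoA, and 24 of them were tested. In DM against NC 19 of the 24 were lower, with a median log2 change of -0.15. Limma called 1 lower and 0 higher, against 0.022% of all genes, and at an unadjusted p under 0.05, 8 were lower and 2 higher, against 5.08% and 5.62% of all genes. In AngIV against DM 20 of the 24 were higher, with a median of 0.16, 0 were called, and at an unadjusted p under 0.05, 4 were higher and 1 lower, against 5.27% and 3.51% of all genes. In AngIV against NC 11 were higher and 13 lower, with 1 called in each direction, against 2.15% of all genes called.

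The 8 genes of isoleucine and valine steps were all lower in DM than in NC, Acat1 only just, where 49.6% of all genes had a positive change. At an unadjusted p under 0.05, 5 of the 8 were lower, against 5.08% of all genes. Acadsb, the branched short-chain acyl-CoA dehydrogenase of isoleucine, read 8.06, 7.85, 7.98 and 8.03 on AngIV arrays, 7.44, 7.42, 7.63 and 7.78 on DM arrays, and 7.86, 8.13, 8.17 and 8.10 on NC arrays. DM was below both other groups on every array. Its log2 change was -0.50 ± 0.11 (SE) in DM against NC (limma adjusted p = 0.104), 0.41 ± 0.11 in AngIV against DM (limma adjusted p = 0.366) and -0.08 ± 0.11 in AngIV against NC. Aldh6a1, methylmalonate semialdehyde dehydrogenase of valine, had -0.27 ± 0.11 in DM against NC and 0.31 ± 0.11 in AngIV against DM. Echs1 and Hsd17b10, which hydrate and oxidise the acyl-CoA intermediates, had -0.31 ± 0.11 and -0.22 ± 0.10 in DM against NC. Acad8, the isobutyryl-CoA dehydrogenase of valine, had 0.30 ± 0.09 in AngIV against DM. None of these 4 was called.

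Abat, a transaminase of GABA that also acts on a side branch of valine, was the gene that limma called in DM against NC. It read 6.73, 5.74, 5.76 and 5.97 on AngIV arrays, 5.15, 5.16, 5.66 and 5.95 on DM arrays, and 7.06, 7.46, 7.46 and 7.36 on NC arrays. Both diabetic groups lay below NC on every array. Abat fell by 1.86 on the log2 scale in DM against NC (limma adjusted p = 0.0031), where its DM mean was below the negative controls' percentile, and by 1.28 in AngIV against NC (limma adjusted p = 0.00925). In AngIV against DM it had 0.57 ± 0.22 (SE, limma adjusted p = 0.505), and 0.35 without AngIV replicate 1, the highest AngIV array. Without the arrays of high atrial mean, DM keeps 1 array and NC 2. The log2 changes of Abat were then -1.75 in DM against NC and -1.36 in AngIV against NC, and neither was called.

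The 6 genes of propionyl-CoA steps, where isoleucine and valine end, were all lower in DM than in NC. Pcca, a subunit of propionyl-CoA carboxylase, had a log2 change of -0.46 ± 0.15 (SE), Mmab, which makes the cobalamin cofactor of the mutase, -0.36 ± 0.11, and Mmut, the mutase itself, -0.29 ± 0.10, with limma adjusted p-values of 0.266, 0.233 and 0.336. Mcee, the epimerase, had -0.29 ± 0.11 in AngIV against NC (limma adjusted p = 0.18). Of 6 transport genes, 4 were higher and 2 lower in DM than in NC. Slc43a2, a carrier of branched-chain and other neutral amino acids, read 5.50, 5.39, 5.27 and 5.38 on AngIV arrays, 6.11, 5.87, 5.46 and 5.36 on DM arrays, and 4.71, 5.01, 4.95 and 4.87 on NC arrays. It was higher in both diabetic groups than in NC on every array, by 0.82 ± 0.15 in DM and 0.50 ± 0.15 in AngIV (limma adjusted p = 0.0681 and 0.0821), with its AngIV and NC means below the negative controls' percentile. In AngIV against DM it had -0.32 ± 0.15, and -0.18 without DM replicate 1. In AngIV against NC, Slc3a2, the heavy chain shared by several amino acid carriers, had 0.41 ± 0.12 (limma adjusted p = 0.0819), and Slc7a8, a light chain, -0.35 ± 0.15 (limma adjusted p = 0.228) with its AngIV mean below that percentile.

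Klf15 encodes a Krüppel-like factor known in mouse heart to raise expression of genes of this pathway. It read 5.97, 6.63, 6.50 and 6.73 on AngIV arrays, 6.36, 6.35, 6.03 and 5.99 on DM arrays, and 5.95, 5.58, 5.73 and 5.92 on NC arrays. Both diabetic groups were above NC on every array. The 10 genes were lower in DM than in NC and higher in AngIV than in DM. Whether Klf15 had a part in either difference was not tested. Klf15 rose by 0.67 ± 0.16 (SE) on the log2 scale in AngIV against NC (limma adjusted p = 0.0412), and had 0.39 ± 0.16 in DM against NC (limma adjusted p = 0.386) and 0.28 ± 0.16 in AngIV against DM (limma adjusted p = 0.623), the last 0.44 without AngIV replicate 1. The call in AngIV against NC was lost with no filter on dim genes, with quantile normalization repeated over named probe sets, with the replicate numbers as a block and without each of 7 arrays in turn, NC replicates 1, 2, 3 and 4 and AngIV replicates 2, 3 and 4, as well as without the arrays of high atrial mean. Its limma adjusted p over all alternatives ran from 0.0103 to 0.161.

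**Figure D4:**
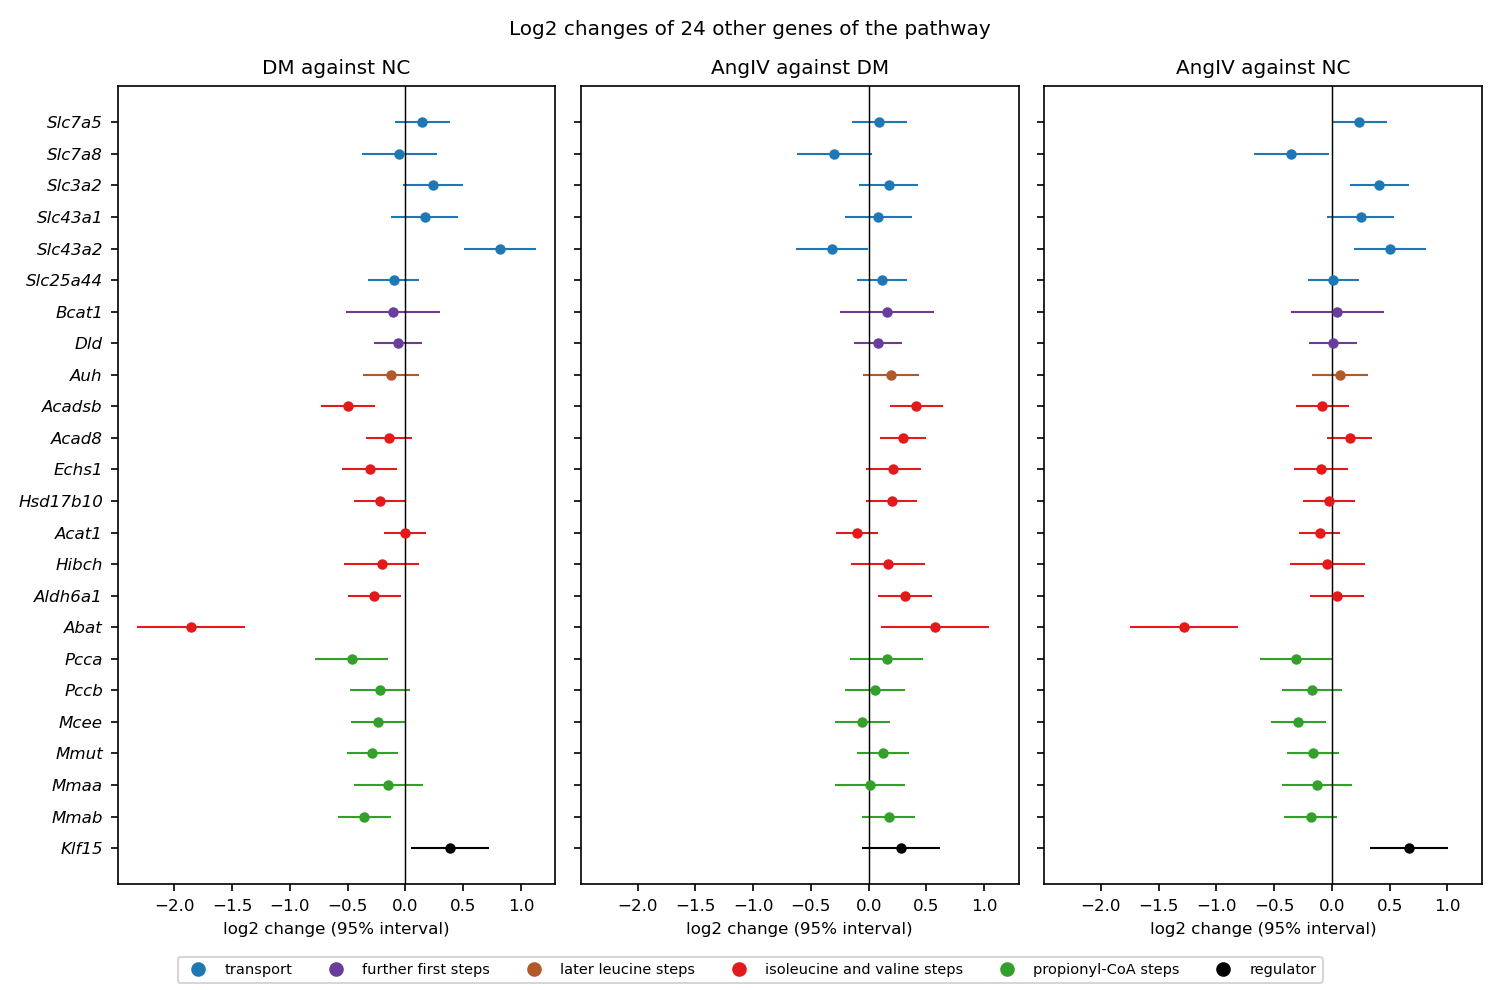
Log2 change (dots) with 95% interval (bars) of 24 other genes of the pathway in 3 comparisons, coloured by step. The genes of isoleucine, valine and propionyl-CoA steps lie below 0 in DM against NC, Acat1 only just, with Abat farthest out at -1.86, while the transport gene Slc43a2 and the regulator Klf15 lie above 0.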

How the data were processed

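Per the submitters' processing notes the authors used RMA (background correction, quantile normalization, probe summary). That the deposited values are log2 follows from their range. Version, chip description file and build are not given in the sources used here. Of 29129 probe sets, 6923 control probe sets were left out, and 19572 had a gene symbol. The brightest probe set per gene was kept, and the dimmest 30% of 19505 genes were left out. Limma 3.58.1 in R 4.3.3 (lmFit, eBayes) fitted 3 group means to all 12 arrays, with Benjamini-Hochberg adjustment over 13653 genes. The limma steps for DM against NC, written out separately, were run on simulated data without a filter, covariate or left-out array. Each array was taken as 1 replicate of its group, and the number of arrays limits the precision. The genes and lists were chosen with earlier results of these data known. Other pathway genes are named where an unadjusted p was under 0.05, with the regulator, and the 5 genes most like the mean of the members. Same-numbered arrays did not deviate together (r from -0.12 to 0.21), so the replicate numbers were not taken as pairs.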

Additional observations from a re-analysis of the deposited data

Results flagged for a closer look

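Bckdha on DM replicate 4 stood apart from the other 3 DM arrays, at a log2 signal of 8.43, while the others lay between 8.22 and 8.25. Chance alone puts about 5% of such groups of 4 apart in this way, and 30 groups (10 genes in 3 groups) were examined.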

How the results depend on the processing

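Direction and side of the limma threshold were kept by 195 of 200 values of the 10 genes for DM against NC, by 200 of 200 for AngIV against DM and by 188 of 200 for AngIV against NC. Each value is 1 gene under 1 alternative. Changes to the filter, the eBayes settings, the groups fitted or the replicate block leave the log2 change of a gene unaltered. Averaging probe sets does so too, since each of the 10 had 1. There the direction was kept by construction, and only the side of the threshold could move. For DM against NC, 3 genes in all and 0 of the 10 were called. With the dimmest 50% left out, 20 genes and 1 of the 10 (Ivd) were called, with a trend of variance on signal 29 and 2 (Bckdhb, Ivd), with only the compared groups fitted 5 and 0, with the atrial covariate 5 and 0. Leaving out 1 array gave 3 to 30 genes and 0 to 1 of the 10, with 10 without NC replicate 1, 5 without NC replicate 2, 9 without DM replicate 3 and 30 without DM replicate 4. For AngIV against NC the 293 genes called became 492 with the dimmest 50% left out, 576 with the trend and 466 with only the compared groups, and 104 to 251 without 1 array. There 1 of the 10 (Ivd) was called with the atrial covariate. For AngIV against DM the count of 0 became 0 to 5 without 1 array, 5 of them without AngIV replicate 2. The causes of these shifts were not tested. Leaving out the 5 arrays of atrial mean over 7, an alternative chosen after seeing the data, gave 0 genes for DM against NC and 102 for AngIV against NC.

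For AngIV against NC, where Mccc2 had 0.03 and Bckdk 0.05, some signs turned. Mccc2 had -0.0075 after quantile normalization, -0.084 with the atrial covariate, -0.013 with array weights, -0.032 without the high atrial arrays and -0.056 to 0.11 without 1 array. Bckdk had -0.020 with the covariate, -0.039 without the high atrial arrays and -0.043 to 0.097 without 1 array. Hibadh had 0.048 for DM against NC without the high atrial arrays, where DM keeps 1 array. Outside the 10, Acadsb (0.0405) and Slc3a2 (0.0432) passed limma's adjusted threshold with the trend, for DM against NC and AngIV against NC in that order. Slc43a2 passed for DM against NC with the trend (0.0252), with the dimmest 50% left out (0.0496) and without DM replicate 4 (0.0216), and for AngIV against NC with only the compared groups (0.0259). At an unadjusted p under 0.05, leaving out 1 array gave 6 to 9 of the 10 for DM against NC and 5 to 9 for AngIV against DM. With the replicate numbers as a block these counts were 8 and 8 and 0 of the 10 were called, and of the calls named in the report it ended that of Klf15 alone. Same-numbered arrays did not deviate together, and the samples share only a number. With a median SE of 0.13 (log2), 4 arrays a group limit what can be seen. All group means of the 10 genes lay above the negative controls' percentile, in DM by 0.99 for Bckdhb and 1.01 for Mccc2. Whether background limits such lower values was not tested.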
